A study of Mus musculus with 36 samples.

Results

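The tumour necrosis factor (TNF) superfamily was examined during the conversion of mouse fibroblasts to induced pluripotent stem cells. Members were the genes of the deposited tables whose symbol begins with Tnfsf or Tnfrsf, together with Cd40, Fas, Ltbr and Ngfr, and 32 of the 21442 genes qualified. Of these, 10 encode ligands and 22 encode receptors. The symbols Fasl, Tnf, Edar, Tnfsf4, Tnfsf14, Tnfrsf9 and Tnfrsf17 had no entry and were not analysed here. RNA-seq libraries came from 6 stages and 2 genotypes with 3 libraries in each of the 12 groups. Mouse embryonic fibroblasts (MEFs) carried Cas9, a Nanog-GFP reporter and a doxycycline-inducible cassette of Myc, Klf4, Oct4 and Sox2 with mOrange. WT cells received a non-targeting sgRNA and KO cells an sgRNA against Zfp266, a KRAB zinc finger gene, both by lentivirus, so the KO MEF and reprogramming libraries were edited populations and not clones. For D3, D5 and D7, these MEFs were mixed with an excess of WT 129 MEFs before transduction. The mix was grown in ESC medium with doxycycline and vitamin C, and mOrange+ cells were sorted. iPSC libraries (iPS) were clones picked late in reprogramming and expanded without doxycycline under puromycin, 3 WT and 3 KO. The ESC WT libraries came from 1 parental line, and the ESC KO libraries from 3 clones made by transfection of a Zfp266 sgRNA plasmid. MEF and D3 libraries therefore differed in medium, doxycycline, vitamin C, co-culture and sorting as well as time, and these cannot be told apart.

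TNF superfamily ligands are mostly trimeric membrane proteins that can be shed. They cluster receptors on the neighbouring cell, which recruit TRAF adapters toward NF-kB and MAP kinase signalling, or, for receptors with a death domain such as FAS and TNFRSF1A, FADD and caspase-8. The family is best known from lymphocytes, where CD40 and the BAFF receptor sustain B cells. Fibroblasts carry the TNF receptor, the lymphotoxin beta receptor, the TWEAK receptor and the secreted decoy osteoprotegerin.

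Total counts ranged from 19224103 to 39610939 per library, and the members took 0.0104% to 0.0802% of them. Levels are given as normalised counts, which are reads divided by the size factor of the library, and 3 reads correspond to 2.31 to 5.22 of these units. Reads carry no molecular identifiers, so such floors and the counting intervals below cover counting error only. Between 2 libraries of a group, the variance was on average 3.16 to 102.7 times that of counting. Intervals of a log2FC come from the fit and include the spread between libraries. Zfp266 mRNA was not lower in KO libraries up to D7 (KO MEFs 3072 to 3293 against 2828 to 3096; D7 1501 to 1557 against 1432 to 1535) and was higher at D3 (1824 to 2049.5 against 1417 to 1598). It was lower in KO iPSCs (1892 to 2212 against 2529 to 2817) and KO ESCs (1969 to 2222 against 2238 to 2445). Small indels need not change the mRNA level, so this does not check the labels. The study itself reported a high rate of out-of-frame Zfp266 indels in the KO MEFs, and genotyping of the KO iPSC and ESC clones. The summed level of 12 fibroblast markers was 443836 to 458579 in WT MEFs and 139.7 to 169 in WT ESCs, and that of 12 pluripotency markers 21.2 to 30.8 and 150145 to 156125. MEF KO replicate 3 stood apart, with an epithelial marker sum of 1182 where the other KO MEFs had 5111 and 5144.

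The family was dominated by receptors. Per kilobase of exon, the scale on which genes can be compared, the 22 receptors summed to 8205 to 8443 normalised counts in the WT MEF libraries, and the 10 ligands to 578 to 694. At D7 the WT sums were 3536 to 4245 for receptors and 159 to 258 for ligands. In WT ESCs they were 863 to 922 and 80.9 to 87.5. The receptor at the top of this order changed with stage. Tnfrsf1a, the main receptor for TNF, led in WT MEFs (3114 per kb), ahead of Ltbr (1282) and Tnfrsf12a (1187). Tnfrsf21, a death receptor of neurons and lymphocytes, led at D3 (909), and Ngfr, the low-affinity neurotrophin receptor, led at D5 (789) and D7 (878). In WT iPSCs the means of Ngfr and Tnfrsf10b were close (154 and 148 per kb), so no order is read from them. The map of all members shows the yellow and green cells of the receptor block move from one set of genes in MEFs to another at D3 to D7, then fade.

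**Figure D1:**
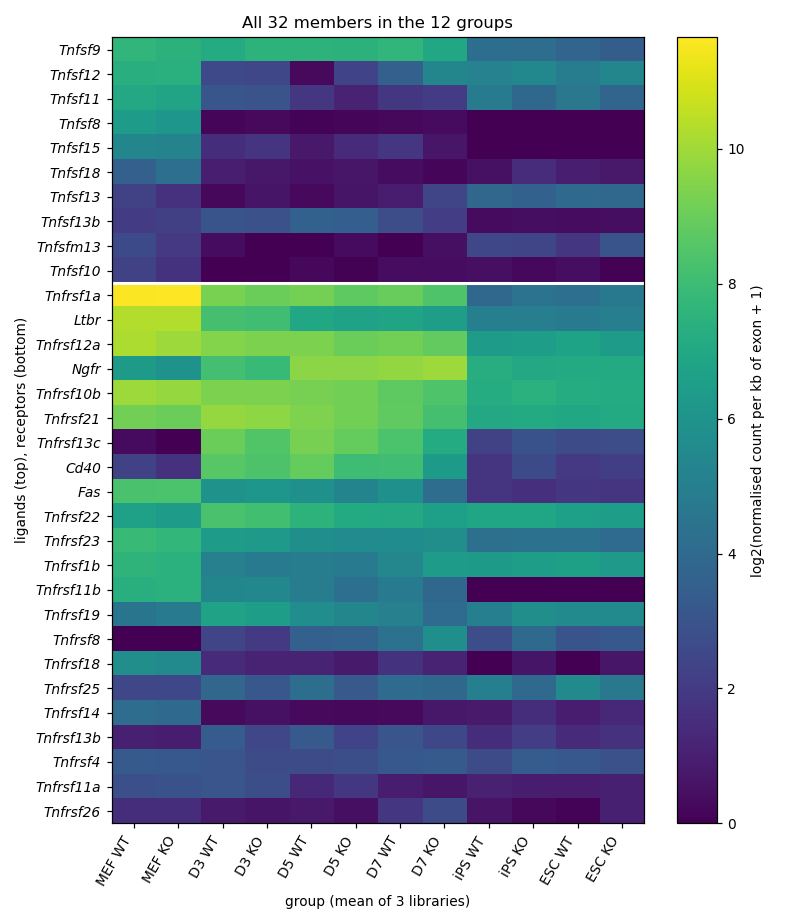
Mean level of each of the 32 members (vertical axis, ligands above the white line, receptors below) in each of the 12 groups (horizontal axis), as log2 of normalised counts per kilobase of exon plus 1. Cd40 and Tnfrsf13c are dark in MEFs and in the pluripotent lines and bright at D3 to D7, Tnfrsf8 is dark in MEFs and brightest in KO at D7, while Tnfrsf1a and Ltbr are brightest in MEFs.

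Between WT MEFs and WT D3, 28 of the 32 members passed FDR < 0.05, where 70.9% of all genes tested did. Of these, 10 members were higher (33.8% of all genes) and 18 lower (37.1%). All 32 members had an FDR in this comparison. The receptors were split, with 9 higher and 10 lower. Among the ligands, 8 of 10 were lower and 1 was higher. The members' median log2FC was -1.34, where that of all genes was -0.01.

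Cd40, the receptor through which helper T cells activate B cells, made one of the large rises. The gene (ENSMUSG00000017652) lies at chr2:165055627-165072948 on the plus strand of GRCm38, the build of all positions here. It was at 10.4, 18.2 and 10.6 in the WT MEF libraries and 1381, 1333 and 1364 at D3 (log2FC = 6.72 ± 0.30 SE, FDR = 3.17e-113). The groups were 2 orders of magnitude apart. Tnfrsf13c (ENSMUSG00000068105, chr15:82221743-82224369, minus strand), which encodes the BAFF receptor of B cells, had 1 read in all 3 WT MEF libraries together and was at 800.4, 1133 and 1242 at D3. The ratio was 2293, with an exact 95% counting interval of 411 to 90594 (FDR = 2.11e-19). Tnfrsf8 (ENSMUSG00000028602, chr4:145267137-145315164, minus strand), the CD30 receptor of activated lymphocytes, had no read in any MEF library and stood at 18.3, 12 and 14.5 at D3. Its D3 mean was at least 3.47-fold above a floor of 3 reads per WT MEF library. Tnfrsf13b, the TACI receptor that shares BAFF with Tnfrsf13c, rose from 1.74, 3.03 and 4.25 to 24.8, 31.0 and 26.2 (log2FC = 3.11 ± 0.70 SE, FDR = 1.99e-05). The ligand of these receptors, Tnfsf13b (BAFF), was the 1 ligand that rose, from 10.4, 28.8 and 23.3 to 34.8, 57.0 and 56.2 (log2FC = 1.21 ± 0.37 SE, FDR = 0.00185).

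Leukocyte markers were measured in the same libraries. The summed level of the 14 leukocyte markers in the table was 683 to 769 in WT MEFs and 449 to 512 at WT D3. The same sum was 2550 to 3772 in WT iPSCs and 2412 to 3056 in WT ESCs, so it does not by itself measure leukocytes. Of the 14, 2 were called higher at WT D3 and 3 lower, and 6 had at least 10 reads in each WT D3 library. The B cell marker Cd79a stayed at 3.89 or below in every D3 and D5 library, and the T cell marker Cd3e was at 0 in all of them. The pair called higher was Cd4, at 0 in every MEF library and 170.0 to 226 in the WT D3 libraries, and Spi1, a transcription factor of myeloid and B cells, at 10.4, 6.06 and 6.37 in WT MEFs and 25.7, 25.0 and 17.4 at D3 (log2FC = 1.61, FDR = 0.0105). The part of these markers' cells in the rises was not tested. In bulk RNA, fewer cells of a type and less RNA per cell cannot be told apart.

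The promoter of Tnfrsf13c is printed, a choice made after its values were seen, because it rose from 1 read in MEFs. It spans chr15:82224331-82224630 on the minus strand of GRCm38.p6, from 250 bases before to 50 after the RefSeq start. Capitals mark a pair of overlapping GC boxes (GGGCGG).
Tnfrsf13c: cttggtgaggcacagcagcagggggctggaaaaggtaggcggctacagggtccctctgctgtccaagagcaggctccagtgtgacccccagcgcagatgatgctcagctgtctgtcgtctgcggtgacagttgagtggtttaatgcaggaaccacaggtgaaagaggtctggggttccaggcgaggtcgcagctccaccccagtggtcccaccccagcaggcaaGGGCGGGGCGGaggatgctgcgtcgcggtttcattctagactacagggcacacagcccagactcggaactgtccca

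Other receptors rose from higher starting levels. Ngfr went from 235, 262 and 330.1 to 889, 729 and 1338 (log2FC = 1.83 ± 0.29 SE, FDR = 1.11e-09). Tnfrsf19, the orphan receptor TROY, rose from 93.9, 98.4 and 121 to 496, 465 and 502 (log2FC = 2.21 ± 0.25 SE, FDR = 1.3e-17), and the groups lay well apart. Tnfrsf22, a decoy receptor for TRAIL, rose by a log2FC of 1.66, whereas its neighbour Tnfrsf23, also a TRAIL decoy, fell by 1.44 on the log2 scale. Tnfrsf22, Tnfrsf23 and Tnfrsf26 lie side by side on chromosome 7 and are related in sequence, so reads could have been split among them. Tnfrsf21 (log2FC = 0.66) and Tnfrsf25, the receptor for the ligand TL1A (log2FC = 1.66), also passed the test.

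The receptors typical of fibroblasts fell. Tnfrsf1a was at 7776, 8273 and 8153 in WT MEFs and 1703, 1536 and 1761 at D3 (log2FC = -2.28 ± 0.20 SE, FDR = 6.32e-28). Ltbr, the lymphotoxin beta receptor encoded near Tnfrsf1a on chromosome 6, went from 2897, 3039.8 and 3117 to 640.0, 725 and 696 (log2FC = -2.14 ± 0.11 SE, FDR = 9.73e-81). In both receptors the MEF and D3 libraries lay far apart. Fas (ENSMUSG00000024778, chr19:34290666-34327772, plus strand), whose product triggers apoptosis on binding FAS ligand, fell from 589.6, 665 and 676 to 129, 132 and 116 (log2FC = -2.36 ± 0.16 SE, FDR = 1.23e-50). Tnfrsf11b, which encodes osteoprotegerin, the secreted decoy for RANKL, fell from 468, 444 and 465 to 136, 84.0 and 121 (log2FC = -2.01 ± 0.27 SE, FDR = 6.75e-13). Smaller falls were seen in Tnfrsf12a, the TWEAK receptor, from 2349.6, 2151 and 2380.5 to 1317, 1210.1 and 1574 (log2FC = -0.75, FDR = 0.00118). Tnfrsf10b, the TRAIL death receptor, went from 5371, 5434 and 5145 to 3594, 3378 and 3677 (log2FC = -0.58, FDR = 9.35e-06). The summed fibroblast markers were at 33568 to 41597 in these D3 libraries, against 443836 to 458579 in MEFs, and their part in these falls was not tested.

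**Figure D2:**
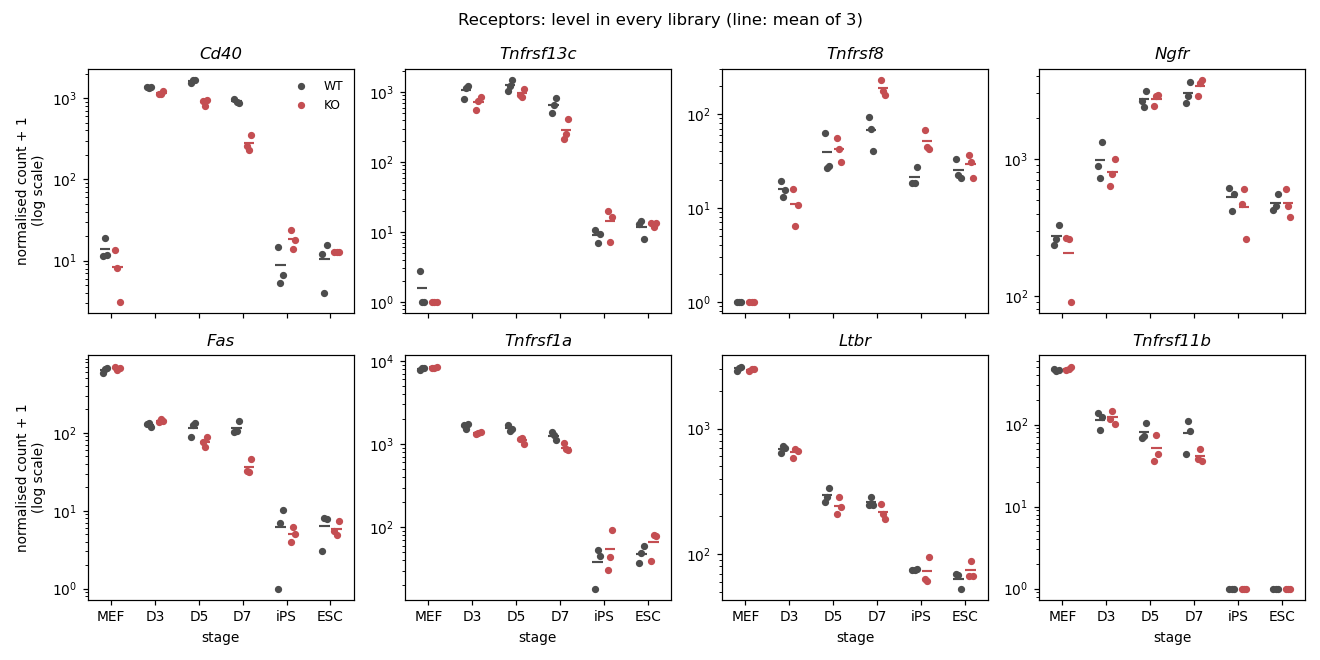
Normalised count plus 1 (log axis) of 8 receptors in every library at each stage, WT in grey and KO in red, with a line at the mean of 3. Cd40 and Tnfrsf13c are low in MEFs, high at D3 to D7 and low again in the pluripotent lines, Tnfrsf8 is at 0 in MEFs and highest at D7, Tnfrsf1a and Ltbr are highest in MEFs and lowest in the pluripotent lines, and the red points lie below the grey ones for Cd40 at D5 and D7 and for Fas at D7.

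Most ligands of the MEFs were lower at D3. Tnfsf8, the CD30 ligand, was at 339, 297 and 333 in WT MEFs and had 2 reads in all 3 WT D3 libraries together. MEFs were 505-fold higher (95% counting interval 139 to 4182). Its receptor Tnfrsf8 ran the other way, from no reads in MEFs to detection at D3. Tnfsf12 (ENSMUSG00000097328, chr11:69686250-69695849, minus strand), which encodes TWEAK, fell from 257, 229 and 237 to 11, 8.0 and 3.88 (log2FC = -4.97 ± 0.35 SE, FDR = 8.32e-46). Tnfsf11, the osteoclast factor RANKL, fell from 315, 238 and 308 to 21.1, 13.0 and 17.4 (log2FC = -4.06 ± 0.34 SE, FDR = 4.15e-32), in the same libraries as its decoy Tnfrsf11b. Tnfsf15, which encodes TL1A, fell from 157, 92.4 and 149 to 1.83, 9.0 and 7.75 (log2FC = -4.43 ± 0.60 SE, FDR = 7.36e-13). Tnfsf9, the ligand of the costimulatory receptor Tnfrsf9, stayed in the same range at 278, 245 and 269 in MEFs and 148, 131 and 269 at D3, and did not pass the test (log2FC = -0.53 ± 0.31 SE, FDR = 0.115). Tnfsf9 overlaps Gm11110 on the opposite strand and the strand setting of the counting was not stated, so reads of the pair might be mixed. Tnfsf13, which encodes APRIL, was at 10.4, 3.03 and 5.31 in MEFs and at 0, 0 and 0.969 at D3. Tnfsf12, Tnfsf13 and the read-through gene Tnfsfm13 share exons on the same strand of chromosome 11, so the split of reads among them is uncertain.

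**Figure D3:**
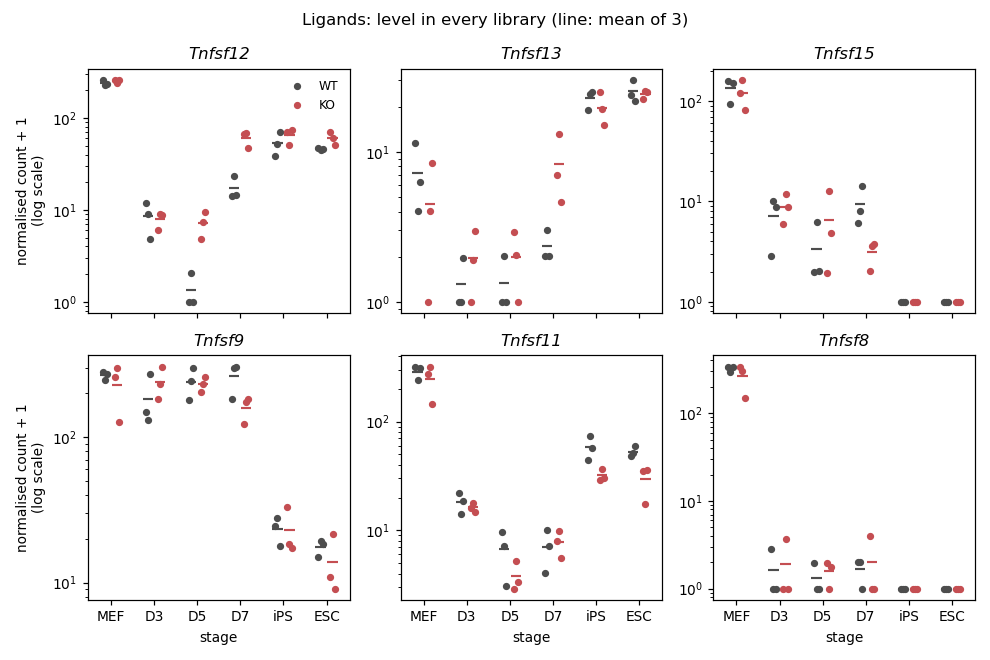
Normalised count plus 1 (log axis) of 6 ligands in every library at each stage, WT in grey and KO in red, with a line at the mean of 3. Tnfsf12 is lowest in WT at D5 and the red points lie above the grey ones at D5 and D7, while Tnfsf8 and Tnfsf15 are at 0 in every iPS and ESC library.

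The remaining members were low in most libraries. Tnfrsf4, the OX40 receptor of T cells, ranged from 2.78 to 18.2 over the 36 libraries, with no call in any of the comparisons between stages or genotypes. Tnfrsf11a, the RANK receptor, was at 40.3, 48.0 and 42.6 at WT D3 and 6.80, 10.3 and 9.37 at D5 (log2FC = -2.31 ± 0.46 SE, FDR = 9.39e-06). Tnfrsf18, the GITR receptor of regulatory T cells, was at 90.4, 78.8 and 74.3 in WT MEFs and 5.50, 1.00 and 0.969 at D3 (log2FC = -5.00 ± 0.87 SE, FDR = 2.54e-08), and it overlaps Gm16008 on the opposite strand. Its ligand Tnfsf18 was at 27.8, 18.2 and 22.3 and 1.83, 4.0 and 0 (log2FC = -3.56 ± 0.91 SE, FDR = 0.000184), so both partners were lower at D3. Tnfrsf14, the HVEM receptor, had a single read at WT D3 after 19.1, 30.3 and 23.3 in MEFs. Tnfsf10, which encodes TRAIL, had no read in any D3 library after 22.6, 22.7 and 17.0 in WT MEFs, while its death receptor Tnfrsf10b was among the 3 highest receptors per kilobase at WT D3. Tnfrsf26 stayed at or below 20.1 and Tnfsfm13 at or below 21.4 in every library.

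Within reprogramming, 10 members passed the test between WT D3 and D5 (2 higher, 8 lower), where 25.1% of all genes did. Between WT D5 and D7, 8 of 28 members with an FDR did (1 higher, 7 lower), where 24.1% of genes did. Ngfr rose to 2633, 2403 and 3126 at D5 (log2FC = 1.46 ± 0.29 SE, FDR = 6.58e-06) and held 2568, 2893 and 3618 at D7. Tnfrsf8 rose to 61.2, 25.8 and 27.1 at D5 (log2FC = 1.35 ± 0.42 SE, FDR = 0.00826), a call that ended without D5 WT replicate 1 (FDR = 0.187). Ltbr fell to 258, 286 and 337 (log2FC = -1.23 ± 0.12 SE, FDR = 5.27e-22). Cd40 was at 1554, 1685 and 1674 at D5 and fell to 969, 900.2 and 874 at D7 (log2FC = -0.84 ± 0.12 SE, FDR = 2.82e-11). Tnfrsf13c likewise went from 1039.7, 1230.3 and 1506 to 506, 645 and 830.3 (log2FC = -0.93 ± 0.25 SE, FDR = 0.00203). In both cases all D7 libraries were below all D5 libraries. Tnfsf12 reached its low at D5, with 1 read in all 3 WT libraries, and returned to 13.2, 22.2 and 13.4 at D7 (FDR = 9.17e-05). The D5 to D7 count was 5 without D5 WT replicate 3, without D7 WT replicate 1 or without D7 WT replicate 2.

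In the pluripotent lines most of the family was low. D7 and iPSC libraries differed in doxycycline, vitamin C, puromycin, co-culture and cloning as well as stage, and these cannot be told apart. Between WT D7 and WT iPSCs, 24 members passed the test (73.5% of all genes), of which 6 were higher (35.8%) and 18 lower (37.7%). Of the receptors, 15 of 22 fell and 2 rose. Cd40 dropped to 13.8, 4.31 and 5.57 and Tnfrsf13c to 9.50, 6.03 and 8.35, back near the MEF range for Cd40. Tnfrsf1a dropped to 17.3, 51.7 and 43.6 and Fas to 0, 6.03 and 9.28. Tnfrsf11b and Tnfsf15 had no read in any iPS or ESC library of either genotype. Their WT D7 means were at least 29.4-fold and 3.20-fold above a floor of 3 reads per WT iPS library. The rise was in 4 ligands, Tnfsf11, Tnfsf12, Tnfsf13 and Tnfsfm13, and in the receptors Tnfrsf1b, a second TNF receptor, and Tnfrsf25. Tnfsfm13 shares exons with Tnfsf12 and Tnfsf13, so the rises at this locus may not be separate. Tnfsf11 returned to 43.2, 73.2 and 56.6 (log2FC = 3.24 ± 0.45 SE, FDR = 1.32e-12) and Tnfsf13 to 18.1, 23.3 and 24.1 (log2FC = 4.01 ± 0.82 SE, FDR = 2.46e-06). Tnfrsf25 was at 51.0, 62.0 and 105 in WT iPSCs against 28.4, 41.3 and 37.0 at D7 (log2FC = 1.03 ± 0.39 SE, FDR = 0.0133), a call that ended without D7 WT replicate 1 (FDR = 0.0641) or iPS WT replicate 3 (0.141).

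WT iPSCs and WT ESCs differed in 0 of 14 members with an FDR (3.2% of all genes), by DESeq2 and by edgeR, with 1 member at an unadjusted p under 0.05. Between WT MEFs and WT ESCs, 27 members passed the test (79.3% of all genes), 6 higher in ESCs (40.0%) and 21 lower (39.4%). Tnfrsf1a showed the contrast at 36.1, 47.6 and 58.2 in ESCs (-7.41 on the log2 scale). The 6 that were higher in ESCs were Tnfsf13, Ngfr, Tnfrsf13c, Tnfrsf19, Tnfrsf25 and Tnfrsf8. The Ngfr call (log2FC = 0.79 ± 0.29 SE, FDR = 0.00995) ended without MEF WT replicate 1 (FDR = 0.0522) or ESC WT replicate 3 (0.0581). Tnfrsf10b and Ngfr were readily detected in ESCs, at 766, 826 and 813 and 425, 451 and 558.

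Targeting of Zfp266 gave no call among the members before reprogramming. In MEFs, 0 of 32 members passed the test between KO and WT, where 0.0428% of all genes did, and none had an unadjusted p under 0.05 by DESeq2 or a call by edgeR. The count was also 0 without MEF KO replicate 3, in which Ngfr (90.0 against 265 and 262 in the other KO MEFs) and Tnfrsf18 (14.8 against 91.9 and 109) were low. At D3, 0 of 21 members with an FDR passed (0.493% of all genes) by DESeq2, 0 by edgeR, and 3 had an unadjusted p under 0.05. These were Cd40, Tnfrsf13b and Tnfrsf13c, with a lower KO mean in each. Tnfrsf13c was at 561, 755 and 859 in KO and 800.4, 1133 and 1242 in WT (log2FC = -0.55 ± 0.25 SE, FDR = 0.656), with overlap. Each KO library of Tnfrsf13c was nevertheless below the WT library of the same replicate number, and pairing within D3 was not tested. In 8 receptors every KO D3 library lay below every WT library, as 7.53% of all genes did. Fas was the 1 receptor with every KO library above every WT library, as 6.77% of all genes were. With the D3 groups alone the count of calls was 1. Cd40 was among the 8, at 1127, 1134 and 1209 in KO against 1381, 1333 and 1364 in WT (log2FC = -0.23 ± 0.11 SE, FDR = 0.743).

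At D5, 3 of 24 members with an FDR passed the test, where 7.15% of all genes did. With the D5 groups alone the count was 6, all lower in KO, and Cd40 was the only call of the main fit among them. Cd40 was at 909, 808 and 950.3 in KO and 1554, 1685 and 1674 in WT (log2FC = -0.88 ± 0.12 SE, FDR = 1.53e-11), and the groups did not overlap. Fas was at 76.3, 64.0 and 88.6 in KO and 87.4, 126 and 133 in WT, with overlap of 1 library each (log2FC = -0.58 ± 0.18 SE, FDR = 0.021). Tnfsf12 had 21 reads in the KO libraries and 1 in the WT libraries, a ratio of 18.8 with a 95% counting interval of 3.03 to 779 (FDR = 0.0173). In 9 receptors every KO library lay below every WT library, as 14.4% of all genes did. Tnfrsf1a was one of them, at 1156, 1196 and 1005 in KO and 1701, 1437 and 1523 in WT, without a call (log2FC = -0.47 ± 0.21 SE, FDR = 0.164). Tnfrsf13c overlapped at 903, 864 and 1119.8 and 1039.7, 1230.3 and 1506 (log2FC = -0.39 ± 0.25 SE, FDR = 0.442). Each KO library of Tnfrsf13c was again below the WT library of the same replicate number. The Fas call ended by edgeR (FDR = 0.208), with the replicate block (0.1004), with the D5 groups alone (0.0792), and without D5 WT replicate 2 (FDR = 0.123), D5 WT replicate 3 (0.190), D5 KO replicate 1 (0.0718) or D5 KO replicate 2 (0.170). The Tnfsf12 call ended without D5 WT replicate 1 (FDR = 0.142), D5 WT replicate 3 (0.162) or D5 KO replicate 3 (0.0537), and it had no FDR with the D5 groups alone, while that of Cd40 passed in each of the alternatives run.

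At D7 members differed by genotype in both directions. Of 32 members, 13 passed the test, where 29.4% of all genes did. KO libraries were lower for 9 members (16.1% of all genes) and higher for 4 (13.3%). With a log2FC beyond 1 as well, 8 members were DEGs (8.37% of all genes). Every KO library lay below every WT library in 10 members (26.2% of all genes) and above in 5 (20.5%). By role, 8 receptors and 1 ligand were lower, and 2 receptors and 2 ligands were higher. The 2 ligands, Tnfsf12 and Tnfsf13, each share exons with the read-through gene Tnfsfm13, so they may not be separate. The members' median log2FC was -0.32, where that of all genes was -0.04.

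Cd40 had the lowest FDR of the family. It was at 257, 228 and 346 in KO and 969, 900.2 and 874 in WT (log2FC = -1.72 ± 0.12 SE, FDR = 1.45e-40), and the highest KO library was far below the lowest WT library. Fas was at 31.1, 30.6 and 44.5 in KO and 101, 105 and 139 in WT (log2FC = -1.70 ± 0.20 SE, FDR = 1.04e-14). Tnfrsf13c was at 211, 254 and 407 in KO and 506, 645 and 830.3 in WT (log2FC = -1.18 ± 0.26 SE, FDR = 3.98e-05). Tnfrsf19 was at 57.2, 70.0 and 102 in KO and 153, 142 and 173 in WT (log2FC = -1.03 ± 0.26 SE, FDR = 0.00056). For none of these 4 receptors did the groups overlap, and each call held in all 11 alternatives run. Tnfrsf21 was also lower in each KO library, at 1209, 1150.2 and 1302 against 1751, 1772 and 1915 (log2FC = -0.57 ± 0.12 SE, FDR = 5.35e-05).

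The other lower calls each ended in at least 1 fit that left out a library. Tnfrsf11b was at 37.2, 49.9 and 35.4 in KO and 42.6, 109 and 82.3 in WT (log2FC = -0.93 ± 0.30 SE, FDR = 0.0104), and the call ended without D7 WT replicate 2 (FDR = 0.151) or D7 KO replicate 3 (0.0559). Tnfrsf10b was at 1849, 1900.4 and 2005 in KO and 2295, 2306 and 2591 in WT (log2FC = -0.32 ± 0.13 SE, FDR = 0.0424), which leaving out any of the 6 libraries ended (FDR from 0.0547 to 0.192). The Tnfrsf22 call (log2FC = -0.49, FDR = 0.0461) ended when any 1 library other than D7 KO replicate 3 was left out (0.0785 to 0.154). Tnfsf15 was at 1.00, 2.63 and 2.72 in KO and 5.07, 7.05 and 13.4 in WT (log2FC = -1.98 ± 0.79 SE, FDR = 0.0443), and this call ended when any 1 library other than D7 WT replicate 1 was left out (0.0576 to 0.231). The calls of Tnfrsf10b, Tnfrsf22 and Tnfsf15 also ended with TMM size factors (FDR = 0.0726, 0.0685 and 0.0507) and by edgeR (FDR = 0.0793, 0.0797 and 0.0756).

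In the opposite direction, Tnfrsf8 was at 231, 176 and 157 in KO and 91.3, 67.5 and 39.1 in WT (log2FC = 1.51 ± 0.36 SE, FDR = 0.000219). Tnfrsf1b was at 303, 326 and 315 in KO and 157, 175 and 144 in WT (log2FC = 0.99 ± 0.23 SE, FDR = 0.000164), a KO level near the 279.8, 294 and 356 of WT iPSCs. The receptors Tnfrsf1a and Tnfrsf1b bind the same ligand, and Tnfrsf1a did not pass the test at 1016, 860.5 and 839.7 in KO and 1389, 1268 and 1128 in WT (log2FC = -0.48 ± 0.21 SE, FDR = 0.0658), although its groups did not overlap. Tnfsf12 was at 66.3, 67.4 and 46.3 in KO and 13.2, 22.2 and 13.4 in WT (log2FC = 1.88 ± 0.29 SE, FDR = 2.28e-09), while its receptor Tnfrsf12a was at 758, 923 and 1022 and 769, 1332 and 1248 (log2FC = -0.31 ± 0.22 SE, FDR = 0.317). Tnfsf13 was at 6.02, 12.3 and 3.63 in KO and 1.01, 2.01 and 1.03 in WT (log2FC = 2.44 ± 0.86 SE, FDR = 0.019), few reads whose call ended with the D7 groups alone (FDR = 0.1002) and without D7 WT replicate 1 (FDR = 0.0710), D7 WT replicate 3 (0.0738) or D7 KO replicate 2 (0.151). For Tnfrsf8, Tnfrsf1b, Tnfsf12 and Tnfsf13 every KO library lay above every WT library.

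**Figure D4:**
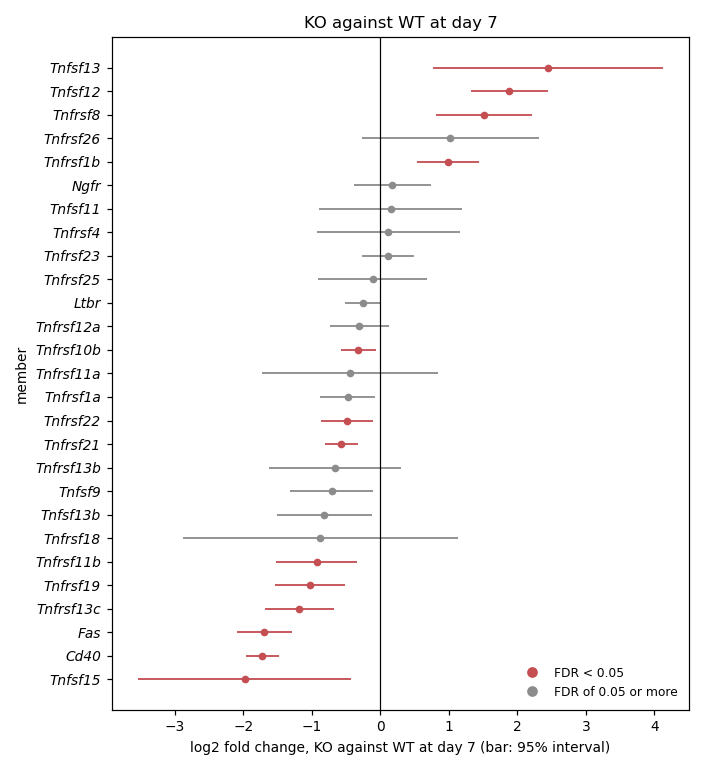
Log2 fold change of KO against WT at D7 (horizontal axis) with its 95% interval for 27 members (vertical axis), red where FDR < 0.05 and grey otherwise; 5 members with under 10 reads in both groups are left out. Cd40 and Fas are the low red points with short intervals (-1.72 and -1.70), and Tnfsf12 (1.88) and Tnfrsf8 (1.51) lie to the right of 0.

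Marker levels moved with genotype at D7. The summed fibroblast markers were 10378 to 24709 in KO and 28104 to 39478 in WT, with 0 of 12 markers called higher and 5 lower. The summed pluripotency markers were 35558 to 45734 and 13111 to 17230.2, with 11 of 12 called higher and 0 lower. The leukocyte sums were 1247 to 1442 in KO and 916 to 1321 in WT. Their part in the changes of the family members was not tested. Of the 19 members without a call, 5 had under 10 reads in both groups, and Ngfr was among the well-measured ones at 2891, 3543 and 3778 in KO and 2568, 2893 and 3618 in WT (log2FC = 0.17 ± 0.29 SE, FDR = 0.723). Its 95% interval ran from -0.39 to 0.73. Ltbr was at 249, 209 and 188 in KO and 243, 284 and 244 in WT (log2FC = -0.26 ± 0.13 SE, FDR = 0.125), and Tnfsf9 at 121, 173 and 181 and 181, 296 and 304 (log2FC = -0.71 ± 0.31 SE, FDR = 0.0667).

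The promoters of Fas and Tnfrsf8 are printed as those of a receptor that was lower and one that was higher in KO at D7, a choice made after their values were seen. Fas lies at chr19:34290409-34290708 on the plus strand and Tnfrsf8 at chr4:145315115-145315414 on the minus strand of GRCm38.p6. Capitals mark an AP-1 site (TGANTCA), an E-box (CACGTG) and GC boxes (GGGCGG or its reverse complement), and both promoters hold all 3 kinds.
Fas: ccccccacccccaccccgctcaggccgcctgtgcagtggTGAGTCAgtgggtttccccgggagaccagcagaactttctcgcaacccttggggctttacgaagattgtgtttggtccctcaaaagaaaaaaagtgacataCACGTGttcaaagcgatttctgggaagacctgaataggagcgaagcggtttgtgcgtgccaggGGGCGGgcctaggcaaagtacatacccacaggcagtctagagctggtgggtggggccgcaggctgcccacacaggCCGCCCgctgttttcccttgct
Tnfrsf8: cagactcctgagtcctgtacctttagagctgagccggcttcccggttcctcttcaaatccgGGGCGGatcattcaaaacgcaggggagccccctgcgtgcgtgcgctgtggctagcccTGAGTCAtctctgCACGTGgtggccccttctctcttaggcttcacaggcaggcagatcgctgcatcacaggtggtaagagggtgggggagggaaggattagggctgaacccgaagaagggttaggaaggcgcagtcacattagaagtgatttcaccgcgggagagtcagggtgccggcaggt

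Of the 32 members, 25 had a promoter in the RefSeq set, with 28 promoters in all. Cd40, Tnfrsf10b, Tnfrsf11b, Tnfrsf22, Tnfrsf26, Tnfsf12 and Tnfsf9 had none there. The motif TGANTCA, searched on both strands, was in 5 of the 28 promoters, those of 4 members (Fas, Tnfrsf8, Tnfsf13 and Tnfsf13b). The promoters of Tnfsf13b overlap and hold the same TGANTCA site, which is counted in each. The motif was in 7.81% of 32851 promoters of all genes. CACGTG was in 6 of the 28 promoters (7.15% of all promoters) and GGGCGG in 14 (35.7%). The octamer ATGCAAAT was in 0 of the 28 and in 1.74% of all promoters. A match is a description of the letters and not of a bound site.

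The timing of the KO change was compared directly. The KO effect at D7 differed from that at D3 in 5 of 24 members with an FDR, where 13.0% of all genes differed. With only the D3 and D7 groups the count was 9. It was more negative at D7 for Cd40 (-1.49 ± 0.17, FDR = 2.79e-15) and Fas (-1.88 ± 0.26, FDR = 4.44e-10) and more positive for Tnfsf12 (2.04 ± 0.54, FDR = 0.00332), Tnfrsf8 (2.08 ± 0.59, FDR = 0.00708) and Tnfrsf1b (1.28 ± 0.33, FDR = 0.00259). The Tnfsf12 difference ended without D3 WT replicate 1 (FDR = 0.0628). Within KO cells, 12 members changed between D3 and D5 (29.3% of all genes), 2 higher and 10 lower, and 14 between D5 and D7 (41.5%), 5 higher and 9 lower. KO Cd40 fell from D3 to D5 (log2FC = -0.38 ± 0.12 SE, FDR = 0.00559) and again from D5 to D7 (log2FC = -1.68 ± 0.12 SE, FDR = 3.34e-40). The first of these Cd40 calls ended by edgeR (FDR = 0.107), with the replicate block (0.1102) and without D5 KO replicate 2 (0.0543). KO Fas fell in both intervals (log2FC = -0.89 ± 0.17 SE, FDR = 3.69e-06, then log2FC = -1.12 ± 0.21 SE, FDR = 7.5e-07). KO Tnfrsf26, of the cluster on chromosome 7, rose between D5 and D7 from 0, 0 and 3.85 to 17.1, 20.1 and 14.5 (log2FC = 3.57 ± 0.89 SE, FDR = 0.000278).

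**Figure D5:**
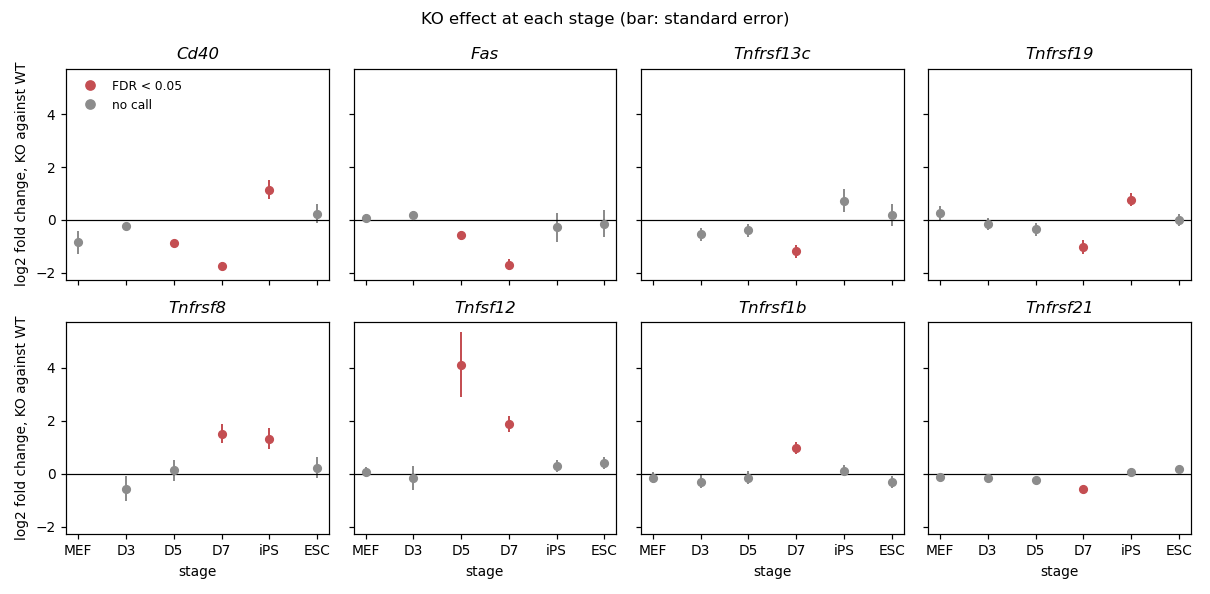
Log2 fold change of KO against WT (vertical axis) at each of the 6 stages (horizontal axis) for 8 members, with bars of 1 standard error and red where FDR < 0.05. Cd40 and Fas step down from D3 to D7 and Tnfrsf8 and Tnfsf12 lie above 0 at D7; points with 3 reads or fewer in both groups together are left out.

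In iPSCs, 5 members passed the test between KO and WT clones, where 16.3% of all genes did. Tnfrsf8 was at 66.9, 43.4 and 41.4 in KO and 17.3, 17.2 and 26.0 in WT (log2FC = 1.33 ± 0.40 SE, FDR = 0.00877). Cd40 was at 23.0, 13.0 and 17.2 and 13.8, 4.31 and 5.57 (log2FC = 1.14 ± 0.36 SE, FDR = 0.0129), and Tnfrsf19 at 249, 165 and 352 and 107, 160.2 and 183 (log2FC = 0.76 ± 0.25 SE, FDR = 0.0168), both with overlap. Tnfrsf25 was lower at 17.0, 36.5 and 46.5 in KO and 51.0, 62.0 and 105 in WT (log2FC = -1.12 ± 0.39 SE, FDR = 0.0311), and Tnfsf11 at 28.0, 35.6 and 29.3 and 43.2, 73.2 and 56.6 (log2FC = -0.89 ± 0.32 SE, FDR = 0.0387). All 5 calls ended when only the iPSC groups were fitted, the Cd40 call ended by edgeR (FDR = 0.0527), and all 5 ended without iPS KO replicate 1, where the count was 1 with another member. The count was 2 without iPS WT replicate 2, 2 without iPS WT replicate 3 and 3 without iPS KO replicate 3.

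In ESCs, 0 of 22 members with an FDR passed by DESeq2 (10.1% of all genes) and 0 by edgeR, with 4 at an unadjusted p under 0.05. Without ESC KO replicate 1 the count was 2, and with the ESC groups alone it was 1. Every KO library lay below every WT library in 2 members (13.5% of all genes) and above in 2 (16.0%). Tnfsf11 was lower in each KO ESC library, at 34.1, 16.5 and 35.0 against 47.2, 50.6 and 58.2 (log2FC = -0.86 ± 0.33 SE, FDR = 0.0732), as was Tnfrsf25, at 64.6, 49.6 and 52.0 against 98.4, 127 and 86.0 (log2FC = -0.90 ± 0.38 SE, FDR = 0.115). Tnfsf12 was higher in each, at 69.1, 59.4 and 49.3 against 46.2, 43.5 and 45.2 (log2FC = 0.40 ± 0.23 SE, FDR = 0.297), as was Tnfrsf26, with 11 reads in the KO libraries and 1 in the WT libraries and no FDR. The KO effect differed between iPSCs and ESCs in 0 of 22 members (1.47% of all genes) by either tool, with 2 at an unadjusted p under 0.05. In a comparison added after the data were seen, the KO effects at D7 and in iPSCs differed in 9 members (21.9% of all genes), among them Cd40, which was lower in KO at D7 and higher in KO iPSCs (difference -2.86 ± 0.38, FDR = 5.98e-12). Cd40 was at most 23.0 normalised counts in those iPSCs.

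Genes that act downstream of the receptors were counted by list, beside shares over all genes of 13.3% higher and 16.1% lower in KO at D7. Of 20 adapters and regulators measured, 1 was higher and 1 lower in KO at D7, Cyld, a deubiquitinase that limits NF-kB signalling (log2FC = 0.72, FDR = 0.000366), and Ripk1, the kinase recruited to death receptors (log2FC = -0.48, FDR = 1.29e-07). Of 18 core NF-kB pathway genes, 3 were higher and 3 lower, including Nfkb1 (log2FC = 0.68, FDR = 2.52e-08), Rela (log2FC = -0.44, FDR = 7.74e-05) and Map3k14, the kinase of the non-canonical pathway used by CD40 and the BAFF receptor (log2FC = -0.85, FDR = 0.00255). Of 17 textbook NF-kB target genes, 15 had an FDR, 0 were higher and 3 lower in KO. These were Csf1 (log2FC = -1.32, FDR = 3.2e-22), Ccl7 (log2FC = -0.92, FDR = 3.1e-08) and Vcam1 (log2FC = -1.14, FDR = 0.029). The median over the 17 targets was -0.43, where that of all genes was -0.04. It includes targets with few reads, as 12 had at least 10 in each WT D7 library and 12 in each KO D7 library. Of 14 cell death genes, 3 were higher and 1 lower, with Xiap, an inhibitor of caspases, among the higher ones (log2FC = 0.83, FDR = 7.12e-12). Among 6 superfamily genes outside the naming rule, Eda, the ectodysplasin ligand, was the 1 with a call (log2FC = -0.85, FDR = 2.68e-10). Between WT MEFs and D3 the adapters had 8 genes higher and 8 lower, the core pathway 4 and 13, the targets 3 and 11, and the death genes 3 and 11, where 33.8% of all genes were higher and 37.1% lower.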

How the data were processed

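The counts of 21442 genes in 36 mouse libraries were taken as deposited. Per the labels and the methods of the study, the libraries were made from polyadenylated RNA with a stranded kit, adapters were removed with Cutadapt, and reads were mapped to GRCm38.p6 with STAR and assigned to genes with Rsubread. The strand setting and annotation release of the counting were not given in the sources used here. The authors' normalised signal table holds the counts divided by a size factor per library and supplied the levels printed here. The deposited KO against WT tables hold log2 fold changes, p-values and FDR of the authors' own comparisons. They served only for their gene symbols, and a batch-corrected log2-scale matrix was not used here. The methods of the study give library preparation date as an example of the batch effects removed from that matrix. That date was not part of the fits here.

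A 12-level factor of stage and genotype was fitted to the counts of all 36 libraries with DESeq2 1.42.0 in R 4.3.3 (Wald test, Benjamini-Hochberg FDR over all genes, independent filtering, no shrinkage). A call is FDR < 0.05, and a DEG also has a log2FC beyond 1. A member without an FDR fell below the independent filter. Exon lengths and coordinates came from the GRCm38 annotation, and promoters from RefSeq on GRCm38.p6. Groups and replicate numbers came from the sample titles. Nothing in the labels states that MEF or reprogramming libraries of a group were separate embryos, so p-values measure the spread between these libraries.

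The members and gene lists were chosen with earlier results of these data known. Some members were given with a value for each library of the groups shown. They were DEGs in any KO against WT comparison, the 5 ligands and 5 receptors with the highest level per kilobase, and textbook receptors. The last were Cd40, Fas, Ngfr, Tnfrsf1a, Tnfrsf10b and Tnfrsf11b. Tnfrsf13b, Tnfsf13b, Tnfrsf1b, Tnfrsf21, Tnfrsf26, Tnfrsf11a, Tnfrsf14, Tnfrsf18, Tnfsf10 and Tnfsf18 were added after their values were seen. From the pathway lists the genes named were among the 4 with the lowest FDR at D7, and leukocyte markers were named after their values were seen. Alternatives were TMM size factors, edgeR 4.0.16 (quasi-likelihood test), a filter of at least 10 reads in at least 3 libraries, a replicate block, the compared groups alone, and each library left out. The DESeq2 and edgeR fits were also run on simulated counts, for KO against WT at D7 only, and no result here rests on that. Some genes of the lists are not reported here by name.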

Additional observations from a re-analysis of the deposited data

Results flagged for a closer look

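These results are listed because the KO effect differed between 2 stages by an interaction contrast of the same fit, with FDR over all genes. The KO effect at D7 minus that at D3, on the log2 scale, was -1.49 for Cd40, -1.88 for Fas, 2.04 for Tnfsf12, 1.28 for Tnfrsf1b and 2.08 for Tnfrsf8. At D3 none of the 5 had a call in KO against WT, and at D7 all 5 did.

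The KO effect at D7 minus that in iPSCs, a comparison added after the data were seen, was -2.86 for Cd40, -1.91 for Tnfrsf13c, -1.79 for Tnfrsf19, -1.01 for Tnfrsf1a, -0.66 for Tnfrsf21 and -0.55 for Tnfrsf10b. It was 2.66 for Tnfsf13, 1.60 for Tnfsf12 and 0.86 for Tnfrsf1b. Cd40 and Tnfrsf19 were called lower in KO at D7 and higher in KO iPSCs. The iPSC libraries were clones expanded without doxycycline under puromycin. The D7 libraries were populations sorted from co-culture with doxycycline and vitamin C. Clone, culture and stage cannot be told apart. Leaving out single libraries ended 4 of these 9 calls. Tnfsf13 lost its call without any of 5 libraries (FDR from 0.0527 to 0.159), the highest without D7 KO replicate 2. Tnfrsf10b lost it without D7 WT replicate 3, iPS WT replicate 1 or iPS KO replicate 1 (0.0636 to 0.0992). Tnfrsf1a lost it without iPS WT replicate 1 (0.0881) or iPS KO replicate 3 (0.283), and by edgeR (0.0610). Tnfrsf1b lost it without any of 8 libraries (0.0523 to 0.0981). With only the D7 and iPS groups, Tnfsf13 (FDR = 0.0528), Tnfrsf10b (0.115) and Tnfrsf1a (0.174) lost it.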

How the results depend on the processing

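No called member changed direction in any alternative run. With only the compared groups fitted, the members called in KO against WT were 1 at D3, 6 at D5, 0 in iPSCs and 1 in ESCs, and the KO effect differed between D7 and D3 in 9. The cause was not tested. With a log2FC beyond 1 as a second condition, the counts were 1 at D5, 8 at D7, 3 in iPSCs, 1 between WT D5 and WT D7, and 7 between KO D3 and KO D5, fewer by construction. Same-numbered WT and KO libraries of a stage had deviations from their group means that correlated at r = -0.12 to 0.29 over genes, and at 0 of 6 stages did every pair exceed 0.1, so the numbers were not taken to pair samples. Every library correlated best with its own number at D5 and D7, and 5 of 6 did at D3, so libraries at these stages may share a batch by number. The main fit ignores this. The replicate block used below assumes the same replicate effects at all stages, so pairing within a stage was not tested. In MEFs, iPSCs and ESCs 1, 2 and 1 of 6 did, and 21 of 36 did over all stages. With the replicate number as a block, 2 members were called at D5 and 4 in iPSCs, and Fas at D5 (FDR = 0.1004), Tnfrsf10b at D7 (0.0533) and Tnfsf11 in iPSCs (0.0502) were the KO against WT calls lost. With each library left out in turn, the counts for KO against WT ran from 0 to 0 in MEFs and at D3, 1 to 3 at D5, 9 to 11 at D7, 1 to 4 in iPSCs and 0 to 2 in ESCs. Between WT D5 and WT D7 they ran from 5 to 8, and for the KO effect at D7 minus that at D3 from 4 to 7. TMM size factors and edgeR each gave 10 calls at D7, and TMM moved the median log2FC of all genes between WT MEFs and WT ESCs from 0.05 to 0.16. Depth limits the members with few reads: at D7, 5 members had under 10 reads in both groups.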
